A study of Mus musculus with 6 samples.

Results

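The enzymes described here are Hmgcs1, Idi1, Fdps, Fdft1, Sqle, Lss, Cyp51 and Dhcr7, which build cholesterol from acetyl-CoA. They were taken by gene symbol from the gene tables, and all 8 were found among 15639 rows, each on a single row. The tables came from total RNA of mouse hippocampus at 6 months of age, sequenced in 6 libraries. Of these, 3 were labelled APP/PS1, mice that express the APP695swe and PS1-dE9 mutations, and 3 were labelled WT, their wild-type controls. The labels name neither the mouse line nor the promoter of the transgenes, and they do not say whether each library is a separate animal, so a p-value here reflects spread among libraries that could be technical in part.

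Cholesterol synthesis runs through the mevalonate pathway to farnesyl diphosphate, then through squalene to lanosterol, and from there by demethylation and reduction to cholesterol. The brain makes its own cholesterol, since lipoproteins of the blood do not cross the blood-brain barrier, and oligodendrocytes and astrocytes are known as large producers. When sterol in the endoplasmic reticulum runs low, SCAP escorts the transcription factor SREBP-2 (Srebf2) to the Golgi, where it is cut free to activate most genes of the pathway.

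Such genes are known for sterol regulatory elements with NF-Y and Sp1 boxes close by, so the bases before the start of transcription are shown for Hmgcs1, the enzyme with the highest level here, and for Dhcr7, the enzyme whose libraries differed most. Both stretches are 250 bases long, end at the base before a RefSeq start and are given from 5′ to 3′ on the plus strand of GRCm38.p6, at chr13:119690101-119690350 for Hmgcs1 and chr7:143822917-143823166 for Dhcr7. Capitals mark the letters of a searched motif on either strand.
Hmgcs1: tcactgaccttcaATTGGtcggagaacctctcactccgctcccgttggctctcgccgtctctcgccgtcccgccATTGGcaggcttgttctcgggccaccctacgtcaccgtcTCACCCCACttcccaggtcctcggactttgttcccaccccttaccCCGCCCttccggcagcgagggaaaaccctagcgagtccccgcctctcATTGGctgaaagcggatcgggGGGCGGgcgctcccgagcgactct
Dhcr7: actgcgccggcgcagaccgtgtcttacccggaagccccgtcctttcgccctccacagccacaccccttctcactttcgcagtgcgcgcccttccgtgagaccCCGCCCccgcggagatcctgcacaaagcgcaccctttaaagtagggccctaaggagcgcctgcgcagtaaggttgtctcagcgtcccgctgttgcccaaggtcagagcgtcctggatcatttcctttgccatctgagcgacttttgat
The motifs searched were the sterol element core TCACNCCAC, a longer full form of that element, the NF-Y box CCAAT, the Sp1 box GGGCGG and the E-box CACGTG. The Hmgcs1 stretch held 1 sterol element core, 3 NF-Y boxes and 2 Sp1 boxes, with no overlap between matches. The Dhcr7 stretch held 1 Sp1 box and none of the other motifs. RefSeq lists 2 further Dhcr7 starts inside the gene, and the window before the start farthest downstream held 2 NF-Y boxes and 3 Sp1 boxes. The promoter table held 7 windows for 5 of the 8 enzymes (Hmgcs1, Idi1, Lss, Cyp51 and Dhcr7). Of the 7, 5 windows held an NF-Y box, 6 an Sp1 box, 1 an E-box, 1 the sterol element core and 0 its full form. Among all 32851 windows of that length in the table, 33.8% held an NF-Y box, 32.7% an Sp1 box, 6.02% an E-box, 1.05% the core and 0.0731% the full form. A match of letters is a description and not a binding site.

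App, the gene behind 1 of the transgenes, was read first because it tests the labels. It was listed at 153.1, 71.0 and 166.2 FPKM, the deposited measure of transcript level per length and library size, under the APP/PS1 label (replicates 1 to 3), and at 69.8, 68.5 and 145.6 FPKM under the WT label (replicates 1 to 3). Prnp, the prion protein gene whose promoter is known to drive the transgenes of a widely used APPswe/PS1-dE9 line, had 471.6, 198.6 and 463.8 FPKM under the APP/PS1 label and 188.1, 181.5 and 457.2 FPKM under the WT label. The library labelled APP/PS1 replicate 2 thus had low App and Prnp, and the library labelled WT replicate 3 had high App and Prnp, against their labels. Results below are by label, and the counts of genes past a threshold and the plotted fold changes are also given in the 4 libraries without these 2. In those 4 the label and the Prnp level split the libraries alike, and App and Prnp differ there through the choice of libraries. Summed FPKM per library ran from 182355 to 185217, and the sequencing depth behind the values is unknown.

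By label, the levels of the 8 enzymes overlapped or lay close, and the exception in size was Dhcr7. In limma over all 13700 genes tested, 0 of the 8 enzymes passed an adjusted p of 0.05 in either direction, where 3 genes (0.0219% of those tested) did. At an unadjusted p under 0.05 the count was 1 of 8, Dhcr7 on the lower side, where 6.69% of all genes tested did. The log2 fold changes of the 8 ran from -0.40 to 0.11, with 3 positive, 5 negative and a median of -0.022, against a median of -0.00089 over all genes tested, of which 49.6% were positive. Fold changes are of FPKM + 1, APP/PS1-labelled over WT-labelled, so they understate the change of low genes. The levels of the 8 enzymes summed to 87.4 ± 3.21 FPKM under the APP/PS1 label and 87.1 ± 4.04 FPKM under the WT label (SD, n = 3 each). In the 4 libraries the count past the adjusted threshold was again 0 of 8, where 0.197% of genes passed, and the unadjusted count was again 1, Dhcr7, where 9.18% of genes did.

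**Figure D1:**
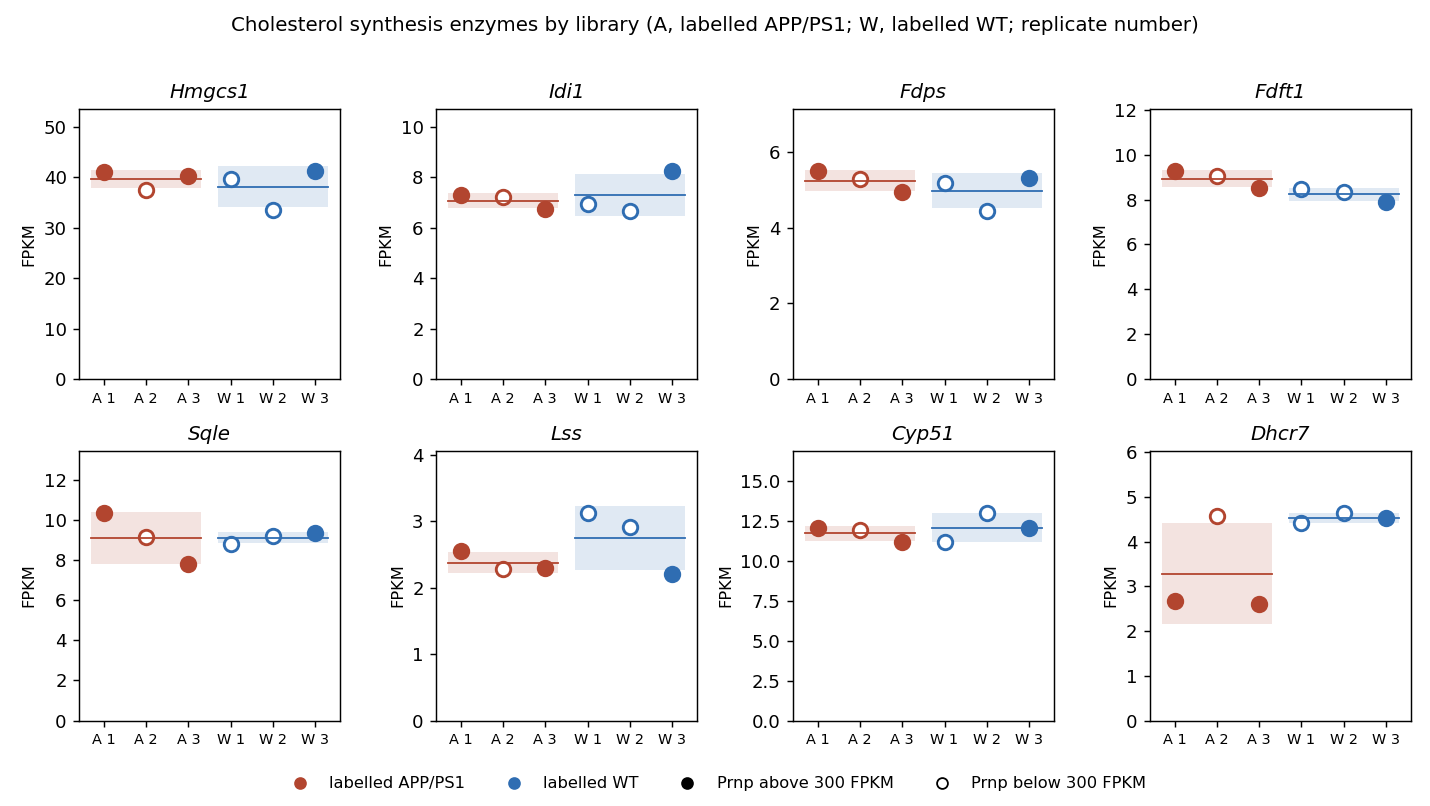
FPKM of each enzyme in each library, with the libraries labelled APP/PS1 (A) left of those labelled WT (W), filled points where Prnp was above 300 FPKM, and the mean and SD of each label (n = 3) as line and band, on axes that start at 0. For Dhcr7, A 1 and A 3 sit at 2.68 and 2.60 FPKM, below the other 4 libraries at 4.43 to 4.65 FPKM.

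Across the 6 libraries the enzymes stood in a steady order of level in FPKM, a measure per length. Hmgcs1, the cytosolic HMG-CoA synthase, was highest, at 38.9 ± 2.91 FPKM (SD over n = 6), with between 40.6% and 47.7% of the 8 summed. Cyp51, Sqle, Fdft1, Idi1, Fdps and Dhcr7 followed at means of 11.9, 9.12, 8.58, 7.19, 5.12 and 3.91 FPKM, and Lss was lowest at 2.56 FPKM. The ranges of Hmgcs1 and Cyp51, of Cyp51 and Sqle, and of Idi1 and Fdps did not overlap over the 6 libraries, so these neighbours were apart in each. The ranges of Sqle and Fdft1, of Fdft1 and Idi1, and of Fdps and Dhcr7 overlapped, and in each of these pairs the order held in 5 of 6 libraries. Dhcr7 and Lss overlapped in range although Dhcr7 was the higher in 6 of 6. Among the 13700 genes tested, ordered from the highest mean level, Hmgcs1 stood at 5.24% and Lss at 74.9%.

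The first enzymes, up to farnesyl diphosphate, overlapped between the labels. Hmgcs1 had 41.1, 37.6 and 40.3 FPKM under the APP/PS1 label (replicates 1 to 3), and 39.7, 33.6 and 41.2 FPKM under the WT label (replicates 1 to 3). The labels overlapped, with WT replicates 2 and 3 as the lowest and the highest library. Its log2 fold change was 0.06 with a 95% interval of -0.13 to 0.25 (adjusted p = 0.936), and 0.15 in the 4 libraries (adjusted p = 0.667).

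Idi1, the isomerase that turns isopentenyl into dimethylallyl diphosphate, had 7.30, 7.21 and 6.73 FPKM under the APP/PS1 label and 6.96, 6.68 and 8.24 FPKM under the WT label, again with WT replicates 2 and 3 at the ends. Fdps, which makes farnesyl diphosphate, had 5.50, 5.29 and 4.96 FPKM under the APP/PS1 label and 5.20, 4.45 and 5.32 FPKM under the WT label. The intervals of their log2 fold changes were -0.23 to 0.16 for Idi1 (estimate -0.033, adjusted p = 0.974) and -0.12 to 0.25 for Fdps (estimate 0.06, adjusted p = 0.931). Of the other enzymes of this stretch, Acat2, a cytosolic thiolase that makes acetoacetyl-CoA, averaged 9.61 ± 0.773 and 8.51 ± 0.374 FPKM under the APP/PS1 and WT labels (log2 fold change 0.16, adjusted p = 0.769). RefSeq places the similar gene Acat3 beside Acat2, and how reads shared by both were counted is not stated in the labels or headers.

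The squalene enzymes are the first that lead to sterols alone. Fdft1, squalene synthase, had 9.26, 9.05 and 8.51 FPKM under the APP/PS1 label (replicates 1 to 3), and 8.48, 8.32 and 7.89 FPKM under the WT label (replicates 1 to 3). Every APP/PS1-labelled library lay above every WT-labelled one, but the gap between 8.51 and 8.48 FPKM is small beside the spread within each label. Fdft1 was the 1 enzyme of 8 without overlap, where 11.9% of genes tested had none, and its log2 fold change of 0.11 (interval -0.030 to 0.24) did not pass (adjusted p = 0.817). Its end overlaps Ctsb, the cathepsin B gene, in RefSeq, which averaged 50.0 ± 1.38 FPKM under the APP/PS1 label and 48.5 ± 0.305 FPKM under the WT label. Whether reads were counted by strand is not stated in the labels or headers.

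Sqle, squalene epoxidase, a rate-limiting enzyme of the pathway, had 10.4, 9.18 and 7.79 FPKM under the APP/PS1 label and 8.80, 9.22 and 9.38 FPKM under the WT label. The APP/PS1-labelled libraries held both the highest and the lowest value, and the mean was about the same under both labels (9.11 ± 1.29 against 9.13 ± 0.297 FPKM). Lss, which closes the epoxide to lanosterol, had 2.55, 2.28 and 2.30 FPKM under the APP/PS1 label and 3.12, 2.91 and 2.21 FPKM under the WT label. WT replicate 3, whose Prnp was high, had the lowest Lss of all 6, and the other 2 WT-labelled libraries had the highest. The log2 fold change of Lss was -0.14 with an interval of -0.40 to 0.11 (adjusted p = 0.877), and -0.23 in the 4 libraries (adjusted p = 0.554).

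The enzymes after lanosterol held the 1 member that stood apart. Cyp51, the lanosterol demethylase of the cytochrome P450 family, had 12.004, 11.893 and 11.188 FPKM under the APP/PS1 label and 11.133, 12.976 and 12.059 FPKM under the WT label, with full overlap (log2 fold change -0.039, interval -0.20 to 0.12, adjusted p = 0.951). Dhcr7, the reductase that makes cholesterol from 7-dehydrocholesterol and is mutated in Smith-Lemli-Opitz syndrome in humans, had 2.68, 4.59 and 2.60 FPKM under the APP/PS1 label (replicates 1 to 3). Under the WT label (replicates 1 to 3) it had 4.43, 4.65 and 4.53 FPKM. APP/PS1 replicates 1 and 3 were low, while APP/PS1 replicate 2 lay inside the narrow WT range.

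Dhcr7 averaged 3.29 ± 1.12 FPKM under the APP/PS1 label and 4.53 ± 0.109 FPKM under the WT label (SD, n = 3 each). Its log2 fold change was -0.40 (SE 0.166, 95% interval -0.79 to -0.0079), with an unadjusted p = 0.0466 and an adjusted p = 0.741, so it did not pass. Without the library labelled APP/PS1 replicate 2 and the library labelled WT replicate 3 it was -0.60, 1.5 times as large, with an interval of -0.82 to -0.39, and it still did not pass (adjusted p = 0.132). Without APP/PS1 replicate 2 alone it was -0.60 too (adjusted p = 0.0672). Those estimates leave out the 1 APP/PS1-labelled library in which Dhcr7 was not low. As a share of the 8 enzymes summed, Dhcr7 made up 2.96%, 5.27% and 3.08% under the APP/PS1 label and 5.04%, 5.61% and 4.99% under the WT label, the same split. The highest library had 1.79 times the lowest, a ratio that 11.6% of all genes tested reached or passed, as did 9.87% of the 7164 genes with a mean of 2 to 10 FPKM. The next largest such ratios among the 8 were 1.42 for Lss and 1.33 for Sqle. Nadsyn1, an NAD synthetase gene that starts next to Dhcr7 on the opposite strand in RefSeq, had 1.01, 1.34 and 1.25 FPKM under the APP/PS1 label and 1.24, 0.812 and 0.962 FPKM under the WT label, without that split.

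**Figure D2:**
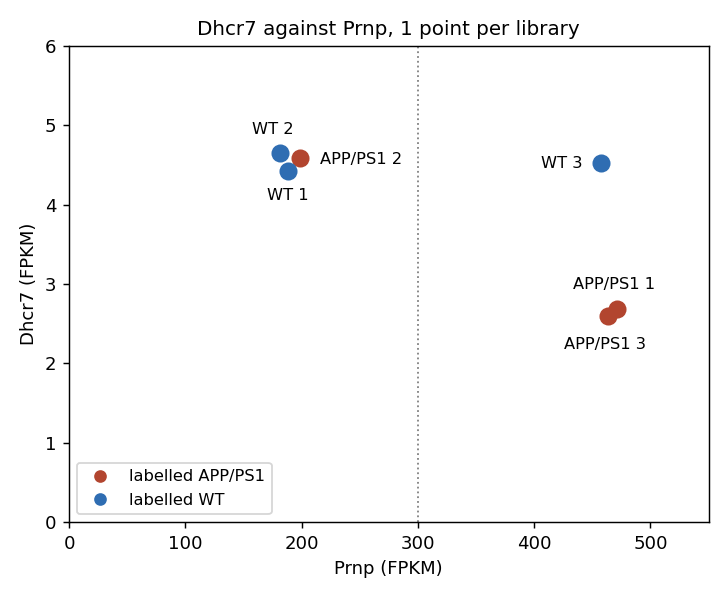
Dhcr7 (vertical axis, FPKM) against Prnp (horizontal axis, FPKM), 1 point per library in the colour of its label, with a dotted line at 300 FPKM of Prnp. Low Dhcr7 was seen in APP/PS1 replicates 1 and 3, both with Prnp above the line, while WT replicate 3, also above it, had 4.53 FPKM.

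Set out by Prnp, the pattern of Dhcr7 followed neither the label nor the Prnp level alone. In the 3 libraries with Prnp above 300 FPKM (APP/PS1 replicates 1 and 3 and WT replicate 3) Dhcr7 had 2.68, 2.60 and 4.53 FPKM, and in the 3 below it (APP/PS1 replicate 2 and WT replicates 1 and 2) 4.59, 4.43 and 4.65 FPKM. Hmgcs1 was the 1 enzyme of 8 whose values did not overlap between the Prnp levels, at 40.3 to 41.2 FPKM above 300 FPKM of Prnp and 33.6 to 39.7 FPKM below it. Of all genes tested, 12.4% did not overlap by that grouping. The other 7 overlapped, among them Lss at 2.21 to 2.55 FPKM above and 2.28 to 3.12 FPKM below. Prnp is a measured level and not a label, so these values are a description and were not tested.

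The 15 other enzymes of cholesterol synthesis, from a list of the pathway, were then counted. By limma 0 of 15 passed the adjusted threshold in the 6 or in the 4 libraries. At an unadjusted p under 0.05 there were 0 of 15 in the 6 libraries, against 6.69% of all genes tested, and 1 of 15 in the 4, against 9.18%. That 1 was Mvd, which makes isopentenyl diphosphate, with a log2 fold change of -0.24 in the 4 libraries (unadjusted p = 0.0220, adjusted p = 0.505) and -0.13 in the 6. Their median log2 fold change was -0.031, with 6 positive and 9 negative. Msmo1, a sterol methyl oxidase that acts after Cyp51, had 5.95, 4.53 and 4.93 FPKM under the APP/PS1 label and 5.68, 7.59 and 5.69 FPKM under the WT label, with WT replicate 2 the highest (log2 fold change -0.25, adjusted p = 0.806). Hsd17b7, a ketoreductase of the same demethylation steps, averaged 3.87 ± 0.349 FPKM under the APP/PS1 label and 4.46 ± 0.337 FPKM under the WT label (log2 fold change -0.17, adjusted p = 0.796).

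**Figure D3:**
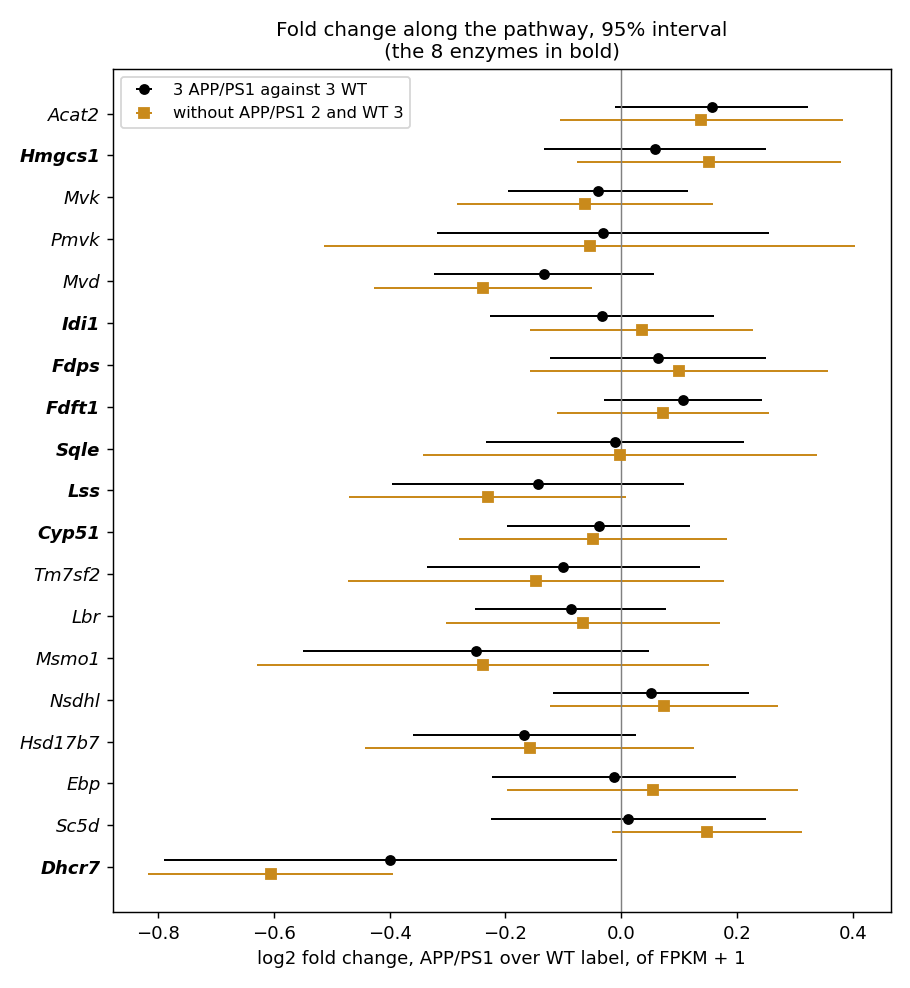
Log2 fold change of FPKM + 1, APP/PS1-labelled over WT-labelled (horizontal axis), with its 95% interval, for enzymes in pathway order down the page, in all 6 libraries (circles) and in the 4 without APP/PS1 replicate 2 and WT replicate 3 (squares). Dhcr7 lies farthest from 0 in both, at -0.40 and -0.60.

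Genes that control the pathway came next. Of 12 tested genes of sterol sensing and SREBP processing, 0 passed the adjusted threshold in the 6 or in the 4 libraries. An unadjusted p under 0.05 was seen for 0 of 12, against 6.69% of all genes tested in the 6 and 9.18% in the 4. In the 6 libraries, 6 were positive and 6 negative, with a median of 0.012. The smallest p in the 6 was that of Srebf1, the gene of SREBP-1, which averaged 8.73 ± 0.521 FPKM under the APP/PS1 label and 7.75 ± 1.25 FPKM under the WT label (log2 fold change 0.16, adjusted p = 0.860). Srebf2 averaged 41.0 ± 1.79 FPKM under the APP/PS1 label and 40.2 ± 1.11 FPKM under the WT label (log2 fold change 0.03, interval -0.093 to 0.15). Scap averaged 11.9 ± 0.801 and 12.2 ± 0.487 FPKM under the APP/PS1 and WT labels. Insig1, which holds SCAP in the endoplasmic reticulum and is itself induced by SREBP, averaged 16.5 ± 0.967 FPKM under the APP/PS1 label and 16.8 ± 0.875 FPKM under the WT label. Transcript levels do not show how much SREBP-2 was cut.

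Genes around the pathway were counted in the same way. Of 12 tested genes of sterol uptake, transport and SREBP-2 targets outside synthesis 0 passed (median 0.018), of 10 of sterol turnover, esterification and efflux 0 (median -0.015), and of 13 of fatty acid synthesis 0 (median 0.040). In each of these lists 0 genes had an unadjusted p under 0.05 in the 6 libraries, against 6.69% of all genes tested. In the 4 libraries 0 passed the adjusted threshold, and the unadjusted counts were 1, 1 and 0, where 9.18% of all genes had such a p. The 2 genes were Vldlr, a lipoprotein receptor, at a log2 fold change of 0.17 (adjusted p = 0.538), and Soat1, which esterifies cholesterol, at 0.20 (adjusted p = 0.532). Soat1 averaged 5.78 ± 0.629 FPKM under the APP/PS1 label and 5.12 ± 0.160 FPKM under the WT label, and had the smallest p of its list in the 6 libraries too (log2 fold change 0.14, adjusted p = 0.827). Scd2, a stearoyl-CoA desaturase, had the smallest p of the fatty acid list, at 241.4 ± 7.94 FPKM under the APP/PS1 label and 226.9 ± 10.2 FPKM under the WT label (log2 fold change 0.09, adjusted p = 0.823). Scarb1, a lipoprotein receptor for cholesterol, had 2.27, 2.35 and 2.36 FPKM under the APP/PS1 label and 2.78, 2.89 and 2.49 FPKM under the WT label, without overlap (log2 fold change -0.16, adjusted p = 0.781). It was the 1 gene of 12 in its list without overlap, where 11.9% of all genes tested had none. Cyp46a1, the neuronal hydroxylase that removes brain cholesterol, averaged 24.1 ± 0.469 and 25.0 ± 2.03 FPKM under the APP/PS1 and WT labels.

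The prenyl branches draw on farnesyl diphosphate for dolichol, ubiquinone and protein prenylation. Of their 10 genes 0 passed the threshold in the 6 or in the 4 libraries (median 0.038 in the 6). An unadjusted p under 0.05 was seen for 0 of 10, against 6.69% of all genes tested in the 6 and 9.18% in the 4. Fntb, the beta subunit of protein farnesyltransferase, had the smallest p, at 4.65 ± 0.439 FPKM under the APP/PS1 label and 4.02 ± 0.428 FPKM under the WT label (log2 fold change 0.17, adjusted p = 0.816). Dhdds, the catalytic subunit of the cis-prenyltransferase of dolichol synthesis, had 12.4, 11.2 and 5.07 FPKM under the APP/PS1 label (replicates 1 to 3), and 11.9, 10.9 and 11.5 FPKM under the WT label (replicates 1 to 3). Only APP/PS1 replicate 3 was low among these 6, so the log2 fold change of -0.32 had a wide interval of -1.05 to 0.42. Nus1, the other subunit of that enzyme, had 17.2, 18.3 and 17.0 FPKM under the APP/PS1 label and 17.4, 16.3 and 17.7 FPKM under the WT label.

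On the log2 scale, the library labelled APP/PS1 replicate 3 had the lowest mean of the 8 enzymes. In summed FPKM of the 8 the lowest was WT replicate 2, at 82.8 FPKM against 84.3 FPKM in APP/PS1 replicate 3. As log2 deviations from the average over the 6 libraries, the means were 0.012, 0.023 and -0.11 under the APP/PS1 label and 0.033, 0.0016 and 0.040 under the WT label. APP/PS1 replicate 3 was also lowest for the 15 other enzymes (-0.059) and the prenyl branches (-0.11). It was lowest for hippocampal neuron (-0.15), microglia (-0.20) and meningeal fibroblast (-0.35) markers too. Every other list had its lowest mean in another library. The prenyl mean rested largely on Dhdds, at 5.07 FPKM there and 10.9 to 12.4 FPKM in the other libraries. The microglia mean rested largely on Cx3cr1, at 0.575 FPKM there and 0.442 to 7.34 FPKM over the 6 libraries. Such list means are therefore not shifts of whole lists. Of the 8 enzymes, Dhcr7 and Sqle had their lowest value in APP/PS1 replicate 3, and Dhcr7 lay farthest below its own mean there. The genes outside the lists whose pattern over the 6 libraries was most like the log2 mean of the 8 enzymes were Pde1b, Cacna2d1, Vps13d, Mtf1 and Aebp1. Their Pearson r was between 0.982 and 0.984. Each had its lowest value in APP/PS1 replicate 3, such as Cacna2d1 at 20.7, 20.1 and 12.8 FPKM under the APP/PS1 label and 20.1, 19.3 and 22.0 FPKM under the WT label. Of 13700 genes tested, 42 (0.307%) reached r = 0.95, and these 5 were taken as the highest among all named genes outside the lists, so the likeness over 6 points is a description. Dhdds reached 0.968.

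**Figure D4:**
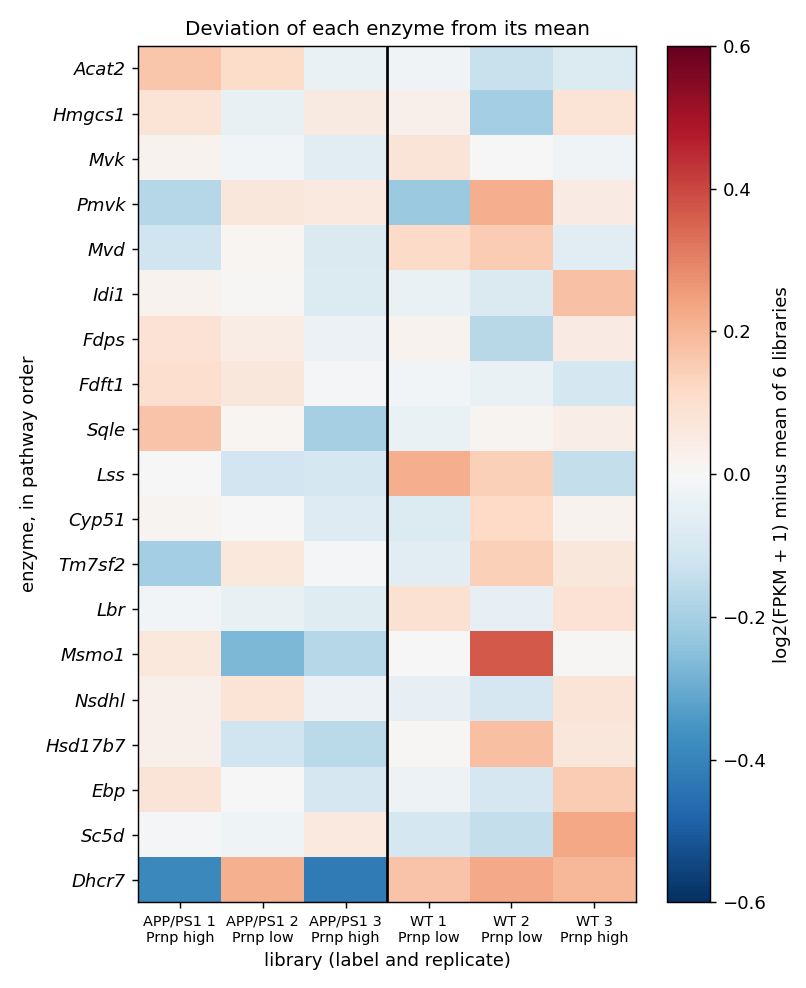
Deviation of log2(FPKM + 1) from its mean over the 6 libraries (colour) for enzymes in pathway order (down) by library (across, labelled APP/PS1 left of labelled WT). Dhcr7 is the row with the deepest low values, in APP/PS1 replicates 1 and 3. Sqle, Mvk, Lbr and Hsd17b7 were also lowest in APP/PS1 replicate 3. Mvd and Tm7sf2 were lowest in APP/PS1 replicate 1. Each of these lay less far below its mean than Dhcr7.

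Markers of cell types that the tissue holds were summed to set beside these values. All listed markers were above 0 in every library. Oligodendrocyte and myelin markers (15 of 15 tested) summed to between 512 and 617 FPKM under the APP/PS1 label and between 438 and 545 FPKM under the WT label, with 14 of 15 log2 fold changes positive and a median of 0.18 (0.32 in the 4 libraries). The myelin sums were 567, 512 and 617 FPKM in APP/PS1 replicates 1 to 3, highest in the 2 libraries where Dhcr7 was lowest, and their part in that difference was not tested. In bulk tissue, fewer cells of a type and less RNA per cell cannot be told apart. Astrocyte markers (12 of 12) summed to 918 to 966 against 909 to 937 FPKM under the APP/PS1 and WT labels (median log2 fold change 0.024). Precursor markers of oligodendrocytes (7 of 7) summed to 67.7 to 73.6 FPKM under the APP/PS1 label and 66.6 to 69.8 FPKM under the WT label (median 0.016). Hippocampal neuron markers (12 of 12) were present, at sums of 246 to 263 FPKM under the APP/PS1 label and 271 to 281 FPKM under the WT label (median -0.10), and general neuron markers had a median of 0.0026. Choroid plexus markers (10 of 10), from tissue that borders the hippocampus, summed to 1296 to 1576 against 983 to 1378 FPKM under the APP/PS1 and WT labels, with a median of 0.23 (0.13 in the 4 libraries). Medians were -0.0099 for 8 microglia, 0.080 for 8 endothelial and -0.16 for 8 meningeal fibroblast markers. One-sided directions were not particular to myelin: 11 of 12 hippocampal neuron markers were negative, and 10 of 10 choroid plexus and 8 of 8 endothelial markers positive. Positive were also 7 of 12 astrocyte, 5 of 7 precursor, 6 of 12 general neuron, 4 of 8 microglia and 2 of 8 meningeal fibroblast markers. By limma, 0 genes of these cell type lists passed the adjusted threshold in the 6 or in the 4 libraries. At an unadjusted p under 0.05, 12 of 92 markers were on the higher side, where 2.85% of all genes tested were, and 2 on the lower side, where 3.83% were. Of the 12, 7 were oligodendrocyte and myelin markers, with the smallest p for Opalin, at 8.43, 7.34 and 8.19 FPKM under the APP/PS1 label and 5.82, 5.89 and 5.90 FPKM under the WT label (log2 fold change 0.39, adjusted p = 0.271). In the 4 libraries the counts were 17 of 92 higher, of which 11 were oligodendrocyte and myelin markers, and 6 lower. Of all 13700 genes tested, 575 were higher and 682 lower at that p in the 4 libraries.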

How the data were processed

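Gene values are FPKM deposited by the authors, 1 table per library. No header names the unit. It was inferred from decimal values, from their totals and from the mention of StringTie beside HISAT2, FastQC and mm9 (no version or role given) in the submitters' processing notes. The circRNA tables deposited by the authors hold whole-number counts (13998 to 19584 reads per library), used here only to compare replicates. Chi-square per degree of freedom was 2.06 to 2.30 within and 2.03 to 2.39 across labels, so no library was a plain resequencing of another. The check cannot tell whether libraries share an animal or an RNA sample. Depth behind the FPKM is unknown, so no interval for counting error is given.

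The 13700 of 15639 genes that reached 1 FPKM in 3 or more libraries were tested with limma 3.58.1 (R 4.3.3, trend and robust settings) on log2(FPKM + 1), label as the only term, Benjamini-Hochberg over all genes tested, threshold 0.05. The fit was tested on simulated data. Also run were 2 other filters, a smaller pseudocount (0.1), scaling by quantiles or by TMM (edgeR 4.0.16), other variance models, the replicate number as a block, and libraries left out. The enzymes and lists were chosen with earlier results of these data known. Named are all 8 enzymes, genes of each list with the smallest p or without overlap (not all are printed), and the 5 genes most like the mean of the enzymes. March6 of the lists was matched to no row by symbol, and Ch25h and Nr1h3 lay under the filter. Srebf2, Scap, Insig1, Nus1, Mvd, Mvk, Lbr, Tm7sf2, Cx3cr1 and the RefSeq neighbours (GRCm38.p6) fall outside that rule and were added after values were seen. Promoter sequences are from RefSeq. Some genes of the lists enter the counts and are not reported here by name.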

Additional observations from a re-analysis of the deposited data

How the results depend on the processing

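None of the 8 enzymes passed the adjusted threshold under any of the 15 alternatives by limma, and the direction of Dhcr7, Lss and Fdft1 was the same under each in which they were tested. Dhcr7 and Lss lay under a filter of 5 FPKM and have no value there. The estimate of Dhcr7 ran from -0.60 to -0.29 with single libraries left out (lowest adjusted p = 0.0672, without APP/PS1 replicate 2). Estimates near 0 changed sign. With single libraries left out they ran from -0.029 to 0.11 for Hmgcs1, -0.086 to 0.047 for Idi1, -0.0026 to 0.10 for Fdps, -0.099 to 0.086 for Sqle and -0.090 to 0.012 for Cyp51. Lss kept its sign but ran from -0.25 (without WT replicate 3) to -0.070 (without WT replicate 1). Hmgcs1 was 0.15 in the 4 libraries, Idi1 was 0.014 with array weights and 0.035 in the 4 libraries, and Sqle 0.0021 with TMM scaling and 0.025 with array weights. The median over the enzymes ran from -0.055 to 0.027 with single libraries left out. Over all genes, 1 was higher and 2 lower past the threshold as reported. There were 2 higher with array weights, 11 higher and 16 lower in the 4 libraries, and 1 to 8 higher and 1 to 22 lower with single libraries left out, the most without APP/PS1 replicate 2. The 11 include App and Prnp, whose values chose the 4 libraries. The causes of these shifts in counts were not tested. With the replicate block 1 gene was higher and 0 lower by limma (360 and 461 at an unadjusted p under 0.05), and Dhcr7 had an adjusted p = 0.804. Same-numbered libraries had correlations of -0.094 to 0.0098 between their deviations from the label means. Those with different numbers had -0.054 to 0.10, so same-numbered libraries were no more alike. Whether the numbers stand for a pairing is not stated in the labels and cannot be decided from 3 libraries per label. Unknown depth and 3 libraries per label limit the precision.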
